A study of Homo sapiens with 16 samples.

Results

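The comparison described here set U2OS cells carrying hairpins against both PIP4K2A and PIP4K2B against U2OS cells carrying the PIP4K2A hairpin alone, both collected 6 h after ultraviolet C light (UV) at 30 J/m2. It rests on 4 of the 16 libraries of the series, 2 labelled shPIP4K2A/2B and UV and 2 labelled shPIP4K2A and UV, chosen by their titles. U2OS is a human osteosarcoma line. The double line had a stable knockdown of both genes, the single line of PIP4K2A, another line of PIP4K2B, and the comparator line carried the empty puromycin vector plko.puro. All were grown under puromycin, and each genotype was also kept untreated, which gives 8 groups of 2 libraries. The labels name no non-targeting hairpin, do not say whether a line was a clone or a pool or whether the double line was derived from the single one, and do not say that replicates were separate cultures. P-values therefore measure a spread between libraries, which may be technical. The main test took that spread from 15 libraries of all groups, not from these 4 alone. Its p-values may thus understate the disagreement of the PIP4K2A-knockdown pair described below. Strand-specific libraries were sequenced after removal of ribosomal RNA.

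PIP4K2A, PIP4K2B and PIP4K2C encode the type II phosphatidylinositol phosphate kinases, which phosphorylate phosphatidylinositol 5-phosphate to the 4,5-bisphosphate. PIP4K2A is the most active isoform in vitro, while PIP4K2B is also found in the nucleus, where its lipid substrate rises under stress and UV. UV-C damages DNA, stalls RNA polymerase II and activates stress kinases, so that many transcripts fall while stress-response transcripts rise. Because both lines carry the PIP4K2A hairpin, the comparison asks what differs when PIP4K2B is also depleted.

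The double-knockdown libraries held 32.3 and 32.1 M (mega) expected counts and the PIP4K2A-knockdown libraries 33.6 and 36.3 M. Of the other 12, 11 held 28 to 39.9 M. The library labelled empty vector, untreated, replicate 1 held 1.28 M, with 14.6% of counts on mitochondrial genes against 2.20 to 3.43% in the rest. It enters no contrast here and was left out of the fit, which used 15 libraries. Levels below are TMM-scaled CPM, counts scaled to library size and composition, and a gene was called when the Benjamini-Hochberg adjusted p of edgeR's quasi-likelihood test was under 0.05 over all 22597 genes tested.

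The replicates of the PIP4K2A knockdown after UV disagreed far more than those of any other group. Among 11569 genes that averaged 5 CPM or more, 36 genes (0.311%) differed by over 0.5 log2 between the double-knockdown UV libraries, against 2181 genes (18.9%) between the PIP4K2A-knockdown UV libraries. In the other groups with 2 usable libraries the share was 0.467 to 2.77%. Chi-square per degree of freedom over genes was 1.8 for the double-knockdown pair and 150 for the PIP4K2A-knockdown pair, against 7.27 to 33.9 in the other groups. The double-knockdown pair thus lay above counting noise but closest to it. This value does not tell separate cultures from a technical repeat. Across these genes the replicates correlated at r = 0.9976 for the double and 0.9674 for the single knockdown. The disagreement was most frequent among short transcripts: 35.6% of the tenth of genes with the shortest transcripts differed by over 0.5 log2 in the PIP4K2A-knockdown pair, against 11.9% of the tenth with the longest. Replicate 1 of that pair had 3.27% of counts on mitochondrial genes and 11.8% in its 10 most abundant genes, and replicate 2 had 2.53% and 14.9%. The part of this in the results was not tested. Genes named below as members of a rise or fall were therefore required to agree within 0.5 log2 between replicates in both groups and not to overlap between groups, and called genes that missed this are marked where they are named. Counts of list members are also given for fits without a library, but not for every list and library. Where they are not given they may have moved too. Most list counts fell without a double-knockdown library.

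**Figure D1:**
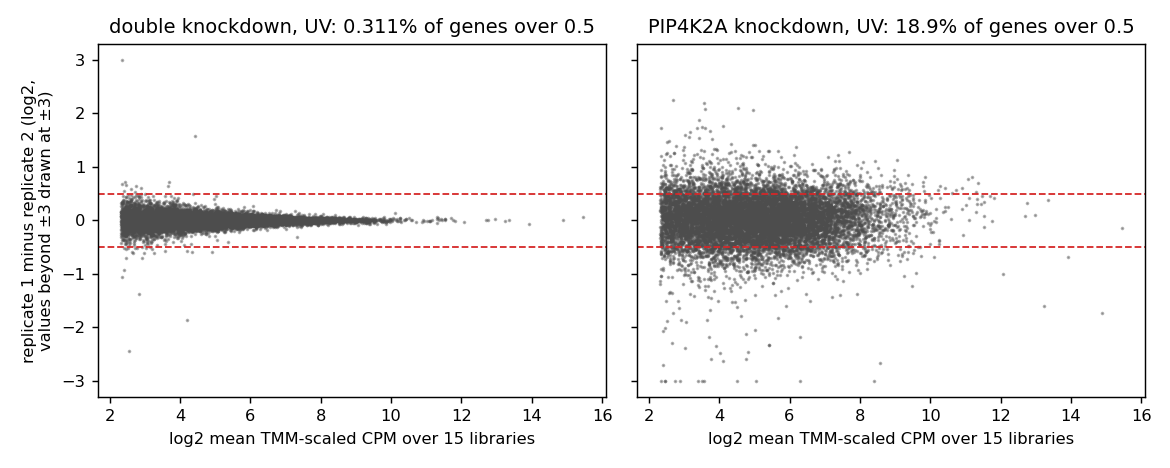
Replicate 1 minus replicate 2 (log2 CPM, vertical axis) against mean expression (log2 CPM, horizontal axis) for 11569 genes, in the double knockdown after UV (left) and the PIP4K2A knockdown after UV (right). Dashed lines mark 0.5 log2. Outside them lie 0.311% of genes on the left and 18.9% on the right.

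Genes with the widest gap between the PIP4K2A-knockdown libraries show what this does to a value, and these 4 were chosen after their values were seen. PCLAF, a PCNA-binding factor, had 93.9 and 92.4 CPM in double-knockdown UV libraries, against 23.4 and 106 CPM in PIP4K2A-knockdown UV libraries. CISD2, an iron-sulphur protein of the endoplasmic reticulum, had 61.2 and 60.8 CPM against 22.0 and 78.3 CPM in the same order of groups. DRAP1, a transcriptional corepressor subunit, had 21.2 and 21.7 CPM in the double knockdown, against 68.4 and 15.9 CPM in the PIP4K2A knockdown. NDUFS5, a complex I subunit, had 19.7 and 20.4 CPM in the double knockdown, against 53.5 and 15.8 CPM in the PIP4K2A knockdown. For each of the 4 the double-knockdown values lay between both values of the PIP4K2A knockdown, and none passed edgeR's test (adjusted p 0.17 to 0.65).

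The targeted genes were read in every library of the contrast. PIP4K2B (ENSG00000276293; GRCh38 chromosome 17, 38765689 to 38800126, minus strand) had 12.8 and 13.9 CPM in double-knockdown UV libraries, against 68.8 and 80.0 CPM in PIP4K2A-knockdown UV libraries. The groups did not overlap, and PIP4K2B fell by 2.48 on the log2 scale (SE 0.11; adjusted p = 1.2e-07, edgeR). The PIP4K2B knockdown line had 16.6 and 17.1 CPM after UV and the empty vector 87.3 and 83.3 CPM, so PIP4K2B stood about as low in the double as in the single PIP4K2B line.

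PIP4K2A (ENSG00000150867; chromosome 10, 22534849 to 22714555, minus strand) had 10.2 and 10.1 CPM in the double knockdown, against 7.91 and 8.01 CPM in the PIP4K2A knockdown, both well under the 55.0 and 61.1 CPM of the empty vector after UV. It was called higher in the double line, by 0.35 log2 (SE 0.10; adjusted p = 0.029, edgeR), a call that was lost with DESeq2 (adjusted p = 0.06), with only the 4 libraries in the fit (0.18) and under other alternatives. In the deposited TPM, which divide by transcript length, the order was not the same: 1.40 and 1.34 TPM in the double knockdown, against 1.82 and 1.37 TPM in the PIP4K2A knockdown. PIP4K2C (ENSG00000166908; chromosome 12, 57591174 to 57603418, plus strand), which no hairpin targeted, had 127 and 123 CPM in the double knockdown, against 74.6 and 91.5 CPM in the PIP4K2A knockdown. It rose by 0.58 log2 (SE 0.10; adjusted p = 0.0013, edgeR) with UV and by 0.40 log2 (adjusted p = 0.024) without UV, but not past the test with only the 4 libraries in the fit (adjusted p = 0.084).

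**Figure D2:**
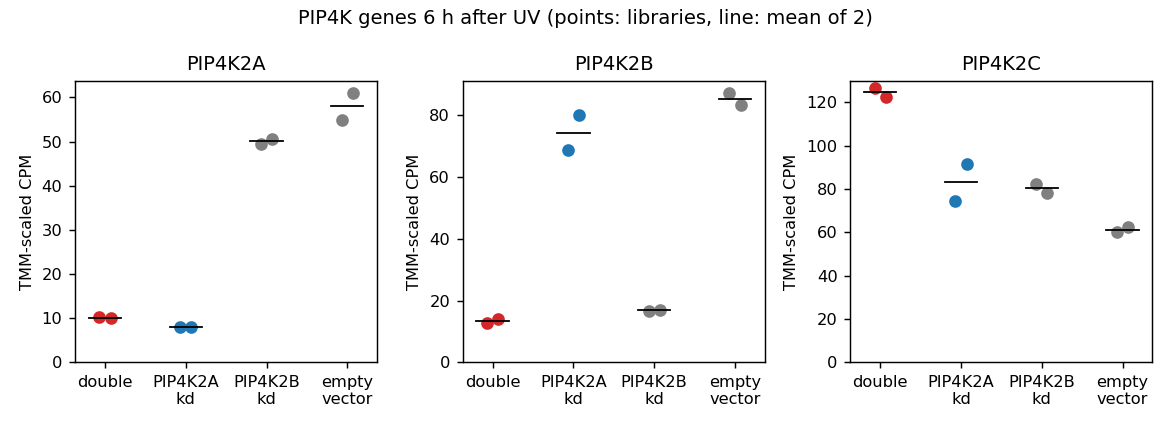
TMM-scaled CPM of PIP4K2A, PIP4K2B and PIP4K2C after UV in the double knockdown, the PIP4K2A knockdown, the PIP4K2B knockdown and the empty vector; points are libraries, lines means of 2. PIP4K2B lies at 12.8 and 13.9 CPM in the double knockdown and at 68.8 and 80.0 CPM in the PIP4K2A knockdown.

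Of the 22597 genes tested, 4412 (19.5%) were called between the lines after UV, 2217 higher (9.81%) and 2195 lower (9.71%) in the double knockdown, with a median log2 fold change of -0.02 over all genes. Of protein-coding genes, 13.1% were called higher and 11.96% lower. Changes over 1 log2 made up 419 of the higher and 500 of the lower calls. The groups did not overlap for 4408 of the 4412 calls. Calling favours genes whose groups lie apart, so this count adds no support, and the share over all genes tested was not counted. The agreement rule kept 3646 calls, 1887 higher and 1759 lower. PIP4K2A-knockdown replicates lay over 0.5 log2 apart for 633 of the 4412 called genes, against 8008 of all 22597 genes tested. Without replicate 1 of the PIP4K2A knockdown 5226 genes were called and without replicate 2 6432, and 2715 of the 4412 were called the same way in both of these fits. Scaling to cytosolic ribosomal protein genes moved the split to 1263 higher and 2427 lower, with the median of all genes at -0.13 log2. Leaving out replicate 1 or 2 of the double knockdown left 1923 and 1927 calls, the fit on the 4 libraries alone 439, and the fit with the deviating vector library added 31. The 15 largest rises and 15 largest falls described next kept their calls in each of these fits but the last, in which 18 of the 30 lost theirs.

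Among genes that averaged 5 CPM or more over the 4 libraries and had agreeing replicates, MAGEA10 (ENSG00000124260; chromosome X, 152133310 to 152138578, minus strand), a cancer-testis antigen gene, rose most. MAGEA10 had 37.2 and 35.6 CPM in double-knockdown UV libraries, against 1.13 and 0.983 CPM in PIP4K2A-knockdown UV libraries, a 34.3-fold difference (log2 5.10, SE 0.16; adjusted p = 4.6e-09, edgeR). MAGEA10 was near 1 CPM in the PIP4K2B knockdown (1.40 and 1.18) and the empty vector (0.777 and 0.933) after UV too, so of these 4 genotypes the double line alone stood high. MAGE-A genes share sequence, and reads may have been split between copies.

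The other 14 largest rises lay between 1.68 and 2.28 log2. FOXS1, a forkhead transcription factor, had 19.4 and 18.5 CPM in the double knockdown, against 4.10 and 3.73 CPM in the PIP4K2A knockdown. LRRC32, the surface protein that docks latent TGF-beta, had 8.95 and 8.48 CPM in the double, against 1.51 and 2.14 CPM in the single knockdown. HEPH, the ferroxidase hephaestin, had 14.5 and 14.1 CPM in the double, against 3.75 and 2.78 CPM in the single knockdown. The groups lay apart for each of these, as the choice of genes required.

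KCNH2, the hERG potassium channel, had 35.7 and 37.6 CPM in the double knockdown, against 8.35 and 8.96 CPM in the PIP4K2A knockdown (log2 2.08, SE 0.10). CCBE1, a secreted factor of lymphatic vessel growth, had 97.5 and 99.4 CPM in the double, against 22.1 and 25.0 CPM in the single knockdown (log2 2.06). CRYAB, a small heat shock protein, had 212 and 211 CPM in the double, against 67.0 and 59.0 CPM in the single knockdown (log2 1.75). The remaining rises were TMC5, SSC4D, MOB3B, CNTNAP2 (a neurexin-family adhesion protein), NMB (the peptide neuromedin B), STRA6 (the retinol transporter), PSG4 and PHYHD1, at 1.68 to 1.97 log2. PSG4 belongs to a family of near-identical genes, and its value is uncertain for that reason. The 15 adjusted p-values ran from 4.6e-09 to 0.00015 (edgeR).

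Among the falls, LINC02474, a long noncoding RNA, had 1.18 and 0.869 CPM in double-knockdown UV libraries, against 10.7 and 9.48 CPM in PIP4K2A-knockdown UV libraries (log2 -3.29, SE 0.20; adjusted p = 1.2e-06, edgeR). SEMA3A, a secreted axon guidance protein, had 2.53 and 2.47 CPM in the double, against 12.8 and 14.3 CPM in the single knockdown (log2 -2.44). LAMA3, a laminin chain of basement membranes, had 2.95 and 3.02 CPM in the double, against 16.3 and 15.4 CPM in the single knockdown (log2 -2.41). For all 3 the groups did not overlap, which the choice of genes required.

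INHBA, which encodes the activin A subunit, had 26.9 and 27.5 CPM in the double knockdown, against 83.2 and 78.8 CPM in the PIP4K2A knockdown (log2 -1.58, SE 0.09). MMP13, a collagenase, had 6.69 and 5.87 CPM in the double, against 17.2 and 18.4 CPM in the single knockdown (log2 -1.5). The other falls were PIP4K2B itself, ZFP30 and ZNF850 (zinc finger proteins), CHRNA4 (a nicotinic receptor subunit), ELL2 (an RNA polymerase II elongation factor), LINC01029, FAT3 (an atypical cadherin), DRAXIN (an axon guidance inhibitor), SLCO2A1 (a prostaglandin transporter) and SOX9 (a transcription factor of cartilage and stem cells), at -2.48 to -1.41 log2. The 15 adjusted p-values ran from 1.2e-07 to 6.8e-05 (edgeR).

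The same lines were compared without UV, a contrast that shares no library with the UV one. It called 1604 genes (7.1%), 798 higher (3.53%) and 806 lower (3.57%), and 1332 of these, 30.2% of the UV calls and 83.0% of the untreated calls, were also called in the same direction after UV. None was called in opposite directions. Without 1 of the untreated libraries of these lines, 583 to 1252 genes were called untreated. Across 11569 genes the log2 fold changes after UV and without UV correlated at r = 0.796 (Spearman's rho 0.758); genes are not independent replicates. All 15 of the largest rises were also called higher untreated, and 14 of the 15 largest falls were also called lower. SOX9 was the exception.

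MAGEA10 had 25.0 and 24.9 CPM in untreated double-knockdown libraries, against 0.573 and 0.704 CPM in untreated PIP4K2A-knockdown libraries, and LAMA3 had 3.16 and 2.74 CPM against 13.3 and 11.8 CPM in the same order of groups. Both line differences were thus there without UV. The UV minus untreated difference was -0.18 log2 for MAGEA10 (SE 0.24; adjusted p = 0.91, edgeR) and -0.32 for LAMA3 (SE 0.23; adjusted p = 0.78, edgeR).

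The test of the UV minus untreated difference itself called 3 of 22597 genes (0.0133%), all lower, with 1641 at an unadjusted p under 0.05. DESeq2 called 19, 243 were called with no filter on low counts, and without replicate 2 of the PIP4K2A knockdown after UV 1523 were called, against 5 without replicate 1. This count thus depended on which library of the disagreeing pair was in the fit. SOX9, ELL2 and STX3, the 3 called, all had PIP4K2A-knockdown UV replicates that agreed under the rule above.

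SOX9 (GRCh38 chromosome 17, 72121020 to 72126420, plus strand) had 55.2 and 58.4 CPM in double-knockdown UV libraries, against 156 and 146 CPM in PIP4K2A-knockdown UV libraries. Untreated, it had 157 and 170 CPM in the double knockdown, against 172 and 173 CPM in the PIP4K2A knockdown. After UV the groups were far apart, while untreated they lay close together (log2 -0.08; adjusted p = 0.70, edgeR). The difference of the differences was -1.33 log2 (SE 0.12; adjusted p = 0.0017, edgeR). SOX9 had 85.9 and 90.9 CPM in the PIP4K2B knockdown after UV, against 171 and 157 CPM in the empty vector after UV (log2 -0.89; adjusted p = 2e-05, edgeR), in libraries that the main contrast does not use. Untreated, it had 146 and 134 CPM in the PIP4K2B knockdown, against 203 CPM in replicate 2 of the empty vector. SOX9 was thus lower in that line without UV too, and a change of this difference with UV was not tested.

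ELL2 (chromosome 5, 95885098 to 95962071, minus strand), a component of the super elongation complex, had 25.0 and 26.1 CPM in the double knockdown after UV, against 73.0 and 69.9 CPM in the PIP4K2A knockdown after UV. Untreated, ELL2 had 76.4 and 70.0 CPM in the double, against 105 and 95.3 CPM in the single knockdown. STX3 (chromosome 11, 59713456 to 59805882, plus strand), a membrane fusion syntaxin, had 16.02 and 17.1 CPM in the double knockdown after UV, against 39.6 and 41.1 CPM in the PIP4K2A knockdown after UV. Untreated, STX3 had 64.1 and 62.4 CPM in the double, against 81.9 and 79.7 CPM in the single knockdown. Both genes were lower in the double line at either state and by more after UV, with a difference of -1.03 log2 for ELL2 and -0.93 for STX3 (adjusted p = 0.018 each, edgeR). In a fit of the UV and untreated libraries of both lines alone the calls of all 3 were lost (adjusted p 0.054 for SOX9, 0.22 for ELL2 and 0.26 for STX3, edgeR). SOX9 also lost its call without replicate 1 of the double knockdown after UV (adjusted p = 0.057, edgeR), and ELL2 and STX3 without either double-knockdown UV library or any 1 of the untreated libraries.

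**Figure D3:**
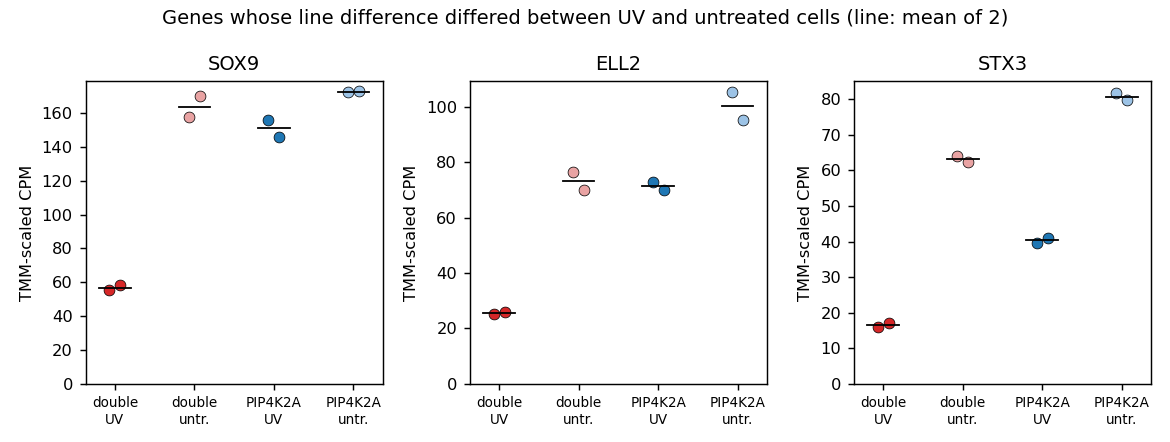
TMM-scaled CPM of SOX9, ELL2 and STX3 in the double knockdown after UV and untreated and in the PIP4K2A knockdown after UV and untreated; points are libraries, lines means of 2. SOX9 lies at 55.2 and 58.4 CPM in the double knockdown after UV, against 156 and 146 CPM in the PIP4K2A knockdown after UV.

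The PIP4K2B knockdown was also set against the empty vector after UV, 4 libraries that the main contrast does not use, to ask whether PIP4K2B depletion went with the same genes when PIP4K2A was not targeted. It called 4288 genes (19%), 2413 higher (10.7%) and 1875 lower (8.3%), and 2056 to 2448 without 1 of its 4 libraries. Of the calls of the main contrast, 403 (9.13% of them, and 9.4% of the PIP4K2B calls) went the same way, and 1111 (25.2% and 25.9%) went the opposite way. Across 11569 genes the fold changes correlated at r = -0.205. The difference between these 2 contrasts was called for 5030 genes (22.3%), 2302 higher (10.2%) and 2728 lower (12.1%) in the PIP4K2A-knockdown background.

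Of the 15 largest rises, 10 were called lower in the PIP4K2B knockdown against empty vector and 2, STRA6 and PHYHD1, were called higher. FOXS1 had 4.30 and 4.38 CPM in the PIP4K2B knockdown, against 20.1 and 23.2 CPM in the empty vector (log2 -2.32; adjusted p = 1.2e-06, edgeR), so its double-knockdown level of 19.4 and 18.5 CPM lay near that of the vector line. KCNH2 had 9.21 and 8.73 CPM in the PIP4K2B knockdown, against 22.6 and 25.7 CPM in the empty vector (log2 -1.43). Both single lines were thus low for FOXS1 and KCNH2, and the double line was not.

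Of the 15 largest falls, 9 were called higher in the PIP4K2B knockdown against empty vector, and 5 were called lower. SEMA3A had 17.3 and 17.3 CPM in the PIP4K2B knockdown, against 4.39 and 3.59 CPM in the empty vector (log2 2.11; adjusted p = 1.2e-06, edgeR). LINC02474 had 8.57 and 8.94 CPM in the PIP4K2B knockdown, against 0.375 and 0.346 CPM in the empty vector (log2 4.58; adjusted p = 1.7e-07, edgeR). The 5 that fell in both contrasts were PIP4K2B, MMP13, ELL2, SLCO2A1 and SOX9.

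**Figure D4:**
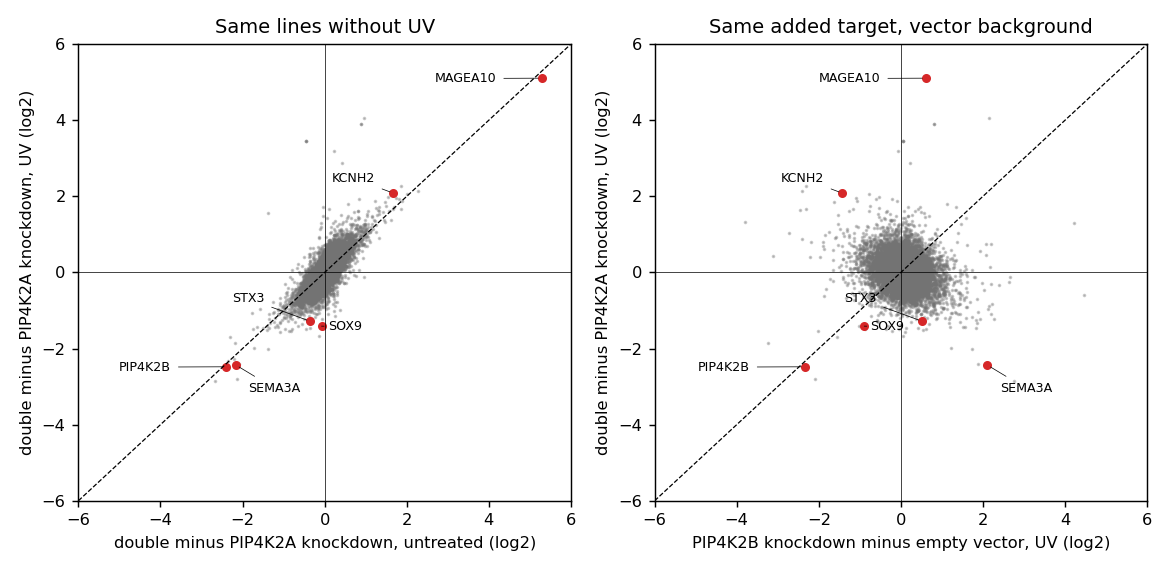
Log2 fold change of the double against the PIP4K2A knockdown after UV (vertical axes) against that of the same lines untreated (left, r = 0.796) and against that of the PIP4K2B knockdown over empty vector after UV (right, r = -0.205), for 11569 genes. Red points are genes named in the text, and the dashed line marks equal values. MAGEA10, at 5.10 log2 after UV, lies near the dashed line at left and far from it at right.

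Genes of G2 and mitosis were lower together in the double knockdown: 22 of 34 members were called lower and 1, CDC25A, higher, 67.65% in all against 19.5% of all genes tested and 25.1% of protein-coding genes, with a median log2 fold change of -0.42 against -0.02 for all genes tested. The counts were the same without either PIP4K2A-knockdown library, and 21 to 23 members were called lower with RLE or ribosomal protein scaling. Without replicate 1 or 2 of the double knockdown 14 and 13 were called lower, and 4 with only the 4 libraries in the fit. Summed over the list, the double-knockdown libraries held 4284 and 4223 CPM, against 6146 and 5820 CPM in the PIP4K2A-knockdown libraries. In bulk RNA, fewer cells at this stage and less of the RNA per cell cannot be told apart.

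CENPE, a kinetochore motor, had 70.6 and 68.6 CPM in the double knockdown, against 156 and 119 CPM in the PIP4K2A knockdown (log2 -0.98, SE 0.12; adjusted p = 0.000215, edgeR). TOP2A, the topoisomerase that untangles mitotic chromosomes, had 443 and 428 CPM in the double, against 704 and 800 CPM in the single knockdown (log2 -0.79, SE 0.11). DLGAP5 (-0.93) and CENPF (-0.91), which act at spindle and kinetochore, fell as well, as did ASPM (-0.78), the mitotic kinase AURKA (-0.63), TPX2 (-0.59) and CCNB1 (-0.31). CDK1 (-0.49) and PLK1 (-0.44) were also called lower, with PIP4K2A-knockdown replicates over 0.5 log2 apart. Untreated, 13 of the 34 were called lower and none higher, against 3.57% and 3.53% of all genes tested. In the PIP4K2B knockdown against empty vector after UV, 20 were called higher and 1 lower, against 10.7% and 8.3% of all genes tested. The difference between the 2 contrasts was called lower in the PIP4K2A-knockdown background for 25 of the 34, against 12.1% of all genes tested. Of 38 G1/S and DNA replication genes, 6 were called higher, MCM5 (0.50) among them, and 4 lower, RRM2 (-0.52) among them, a share of 26.3% against 25.1% of protein-coding genes. That split was 11 higher and 3 lower without replicate 1 of the PIP4K2A knockdown, 7 and 8 without replicate 2, 2 and 1 or 3 and 1 without a double-knockdown library, 2 and 4 with ribosomal protein scaling, and 0 and 0 with only the 4 libraries.

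Among NF-kB targets and inflammatory cytokines, 8 of 21 members tested were called lower and 1, NFKB2, higher, 42.86% in all against 25.1% of protein-coding genes, with a median of -0.73 log2. NF-kB is the transcription factor family that drives these genes after stress and cytokines, and UV is one of its inducers. Without replicate 1 of the PIP4K2A knockdown 5 were called lower, without replicate 2 10 were, without a double-knockdown library 4 or 5, and with only the 4 libraries 3 of 17 tested. CXCL8, the neutrophil chemokine interleukin-8, had 1.49 and 1.36 CPM in the double knockdown, against 7.88 and 7.31 CPM in the PIP4K2A knockdown (log2 -2.41, SE 0.20; adjusted p = 1.2e-05, edgeR). TNFAIP3, the ubiquitin-editing enzyme that shuts NF-kB off, had 4.30 and 4.80 CPM in the double, against 12.3 and 10.5 CPM in the single knockdown (log2 -1.32, SE 0.13). BIRC3, an inhibitor of apoptosis, had 1.28 and 1.18 CPM in the double, against 3.91 and 3.09 CPM in the single knockdown (log2 -1.5, SE 0.21). The groups did not overlap for any of these 3, which the choice of named members required.

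The regions upstream of these 3 genes are shown because they are NF-kB targets. The 3 were picked among members that were called, so their common fall follows from the choice. IL1A (log2 -0.87), called lower under the same rule, is not shown. Each line gives the 250 bases before the RefSeq start (GRCh38.p14, plus strand), which lie at chr4:73740319-73740568 for CXCL8, chr6:137867009-137867258 for TNFAIP3 and chr11:102317234-102317483 for BIRC3, with matches in capitals to GGNNNTTCC (kB-like) or TGANTCA (AP-1), on either strand.
CXCL8: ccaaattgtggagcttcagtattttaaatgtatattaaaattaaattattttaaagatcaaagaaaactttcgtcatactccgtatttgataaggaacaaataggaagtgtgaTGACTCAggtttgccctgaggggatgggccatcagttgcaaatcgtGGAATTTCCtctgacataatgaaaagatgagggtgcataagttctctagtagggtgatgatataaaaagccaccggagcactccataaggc
TNFAIP3: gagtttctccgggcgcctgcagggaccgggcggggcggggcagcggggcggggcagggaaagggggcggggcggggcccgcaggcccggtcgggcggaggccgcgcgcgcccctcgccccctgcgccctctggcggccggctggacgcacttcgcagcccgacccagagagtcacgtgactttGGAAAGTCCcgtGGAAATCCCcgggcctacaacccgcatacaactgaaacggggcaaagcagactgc
BIRC3: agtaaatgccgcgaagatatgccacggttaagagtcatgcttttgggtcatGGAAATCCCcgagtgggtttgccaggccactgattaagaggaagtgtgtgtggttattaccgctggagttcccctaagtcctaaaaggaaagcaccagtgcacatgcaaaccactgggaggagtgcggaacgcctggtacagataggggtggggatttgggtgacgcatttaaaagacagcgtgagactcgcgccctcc
CXCL8 holds 1 kB-like and 1 AP-1 match, TNFAIP3 2 kB-like matches and BIRC3 1. Of 35116 windows of this length in the same table, 17.1% hold a kB-like and 6.57% an AP-1 match, so a match describes the letters and is not shown to be a site.

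Untreated, CXCL8 stood at 0.205 and 0.185 CPM in the double, against 0.601 and 0.576 CPM in the single knockdown. NFKBIA (-0.83), the inhibitor that holds NF-kB in the cytoplasm, and IL1B (-2.32) were called lower but had replicates over 0.5 log2 apart in 1 group, whereas PTGS2 (0.13) and IL6 (0.49) did not pass the test. Untreated, 5 of the 21 were called lower and 1 higher, against 3.57% and 3.53% of all genes tested. In the PIP4K2B knockdown against empty vector after UV, 9 were called higher and 1 lower, against 10.7% and 8.3% of all genes tested. TNFAIP3 had 10.3 and 9.65 CPM in the PIP4K2B knockdown, against 4.66 and 4.18 CPM in the empty vector after UV (log2 1.17; adjusted p = 6.7e-05, edgeR), so both single knockdown lines stood high and the double stood at the level of the vector. Of the immediate early and AP-1 genes, a group that includes UV-induced factors, 5 of 32 were called lower and 1, JUND, higher. That is 18.75%, against 19.5% of all genes tested and 25.1% of protein-coding genes. The deposited TPM of JUND overlapped between the groups, at 52.8 and 60.9 in the double, against 87.1 and 36.2 in the single knockdown. FOS had 30.9 and 32.3 CPM in the double, against 45.2 and 39.9 CPM in the single knockdown (log2 -0.43; adjusted p = 0.036, edgeR). The count for this list was 2 lower and 3 higher without replicate 1 of the PIP4K2A knockdown, 13 lower and 2 higher without replicate 2, 2 lower and 0 higher without either double-knockdown library, 9 lower and 1 higher with ribosomal protein scaling, and 0 and 0 with only the 4 libraries.

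Cholesterol synthesis and SREBP target genes leaned the other way, with 11 of 30 called higher, 3 lower and a median of 0.23 log2, 46.67% called in all against 25.1% of protein-coding genes. The counts were 14 and 3 without replicate 1 of the PIP4K2A knockdown, 13 and 4 without replicate 2, 4 and 0 without either double-knockdown library, 7 and 3 with ribosomal protein scaling, and 1 and 0 with only the 4 libraries. INSIG1, which retains the SREBP complex when sterols are plentiful, had 27.9 and 28.3 CPM in the double knockdown, against 10.2 and 14.1 CPM in the PIP4K2A knockdown (log2 1.21, SE 0.12; adjusted p = 5.7e-05, edgeR). The mevalonate enzymes MVK (0.55) and MVD (0.53) and the transcription factors SREBF1 (0.51) and SREBF2 (0.49) rose, whereas ACACA (-0.37) and HMGCS1 (-0.26) fell. In the deposited TPM the groups overlapped for MVD and SREBF1. SREBF1 had 25.5 and 28.2 TPM in the double, against 44.6 and 19.5 TPM in the single knockdown. MVD had 14.3 and 13.7 TPM in the double, against 14.6 and 9.96 TPM in the single knockdown. In the PIP4K2B knockdown against empty vector after UV, 13 of the 30 were called lower and none higher, against 8.3% and 10.7% of all genes tested. The difference between the contrasts was called higher for 17, against 10.2% of all genes tested.

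TGF-beta and BMP genes included 10 of 25 called lower and 4 higher, 56% in all against 25.1% of protein-coding genes (9.71% of all genes tested were lower and 9.81% higher). Without replicate 1 or 2 of the double knockdown 7 and 6 were lower and 3 and 2 higher, with ribosomal protein scaling 11 were lower and 2 higher, and with only the 4 libraries 2 were lower and 1 higher. The ligands INHBA (-1.58) and TGFB2 (-0.84) fell, as did the corepressor SKI (-0.78). The ligands BMP4 (-1.18) and BMP2 (-0.94) were called lower too, with replicates over 0.5 log2 apart in 1 group. The latent TGF-beta binding protein LTBP1 (0.66) and the inhibitory SMADs SMAD6 (0.65) and SMAD7 (0.32) rose. TGFB2 had 136 and 141 CPM in the double knockdown, against 272 and 225 CPM in the PIP4K2A knockdown.

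Matrix and adhesion genes moved in both directions. Of 38 matrix genes 8 were called higher and 10 lower, 47.37% in all, and of 30 integrin and adhesion genes 3 higher and 9 lower, 40% in all, against 25.1% of protein-coding genes. COL3A1 had 46.0 and 45.4 CPM in the double, against 13.9 and 19.6 CPM in the single knockdown (log2 1.45), and COL8A1 had 99.2 and 103 CPM against 39.6 and 38.0 CPM in the same order (log2 1.38). PCDH7 (-1.25) and CDH4 (-1.04), both cadherins, fell, and the collagen-binding ITGA11 (1.35) and the laminin-binding ITGA7 (1.13) rose. CDH4 had 43.2 and 45.2 CPM in the double, against 106 and 75.6 CPM in the single knockdown. The matrix split was 12 higher and 7 lower without replicate 1 of the PIP4K2A knockdown, 9 and 15 without replicate 2, and 7 and 7 or 5 and 7 without a double-knockdown library. With only the 4 libraries 2 matrix genes were called in each direction, and 1 adhesion gene was higher and 3 lower.

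Among phosphoinositide kinases and phosphatases, PIP4K genes included, 13 of 50 were called higher and 6 lower, 38% in all against 25.1% of protein-coding genes (9.81% of all genes tested were higher and 9.71% lower). The split became 5 higher and 7 lower with ribosomal protein scaling, 4 and 3 or 3 and 3 without a double-knockdown library, and 0 and 2 with only the 4 libraries. INPP5D, the SHIP1 phosphatase of PI(3,4,5)P3, had 4.85 and 6.36 CPM in the double knockdown, against 14.5 and 13.8 CPM in the PIP4K2A knockdown (log2 -1.33, SE 0.15; adjusted p = 9.1e-05, edgeR). SYNJ2, a synaptojanin phosphatase, fell by 0.63 log2.

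In other stress and signalling lists, no direction had more than 5 calls without 1 double-knockdown library or more than 1 with only the 4 libraries, and their shares stand against 25.1% of protein-coding genes. Of 34 p53 targets 8 were called higher, CDKN1A (0.52), BBC3 (0.74) and SESN2 (0.52) among them, and 5 lower, XPC (-0.52) among them; this was 38.24% in all. With ribosomal protein scaling 3 were higher and 4 lower, and without replicate 2 of the PIP4K2A knockdown 13 and 6. CDKN1A, the p21 inhibitor of cyclin-dependent kinases, had 331 and 327 CPM in the double, against 253 and 207 CPM in the single knockdown (adjusted p = 0.0022, edgeR). Its deposited TPM overlapped between the groups, at 98.5 and 98.8 in the double, against 101.8 and 68.3 in the single knockdown. Of 34 glycolysis and hypoxia genes 11 were called higher and 3 lower, 41.18% in all, with 7 higher under RLE or ribosomal protein scaling and 10 higher and 6 lower without replicate 2 of the PIP4K2A knockdown. ENO2, a neuronal-type enolase of glycolysis, had 76.7 and 76.1 CPM in the double, against 38.0 and 43.6 CPM in the single knockdown. Lysosome and autophagy genes had 8 of 40 higher, with CTSL (0.82) and WIPI1 (0.60), and 1 lower, 22.5% in all. The list had 15 higher without replicate 1 of the PIP4K2A knockdown, 13 without replicate 2 and 5 with ribosomal protein scaling. Growth factor and IGF-binding genes had 8 of 27 lower, IGFBP7 (-0.79) among them, and 2 higher, PDGFRA (0.59) among them, 37.04% in all, with 4 higher without replicate 1 of the PIP4K2A knockdown. IGF2 (-1.99) and IGFBP4 (1.84) were among the calls, with PIP4K2A-knockdown replicates over 0.5 log2 apart. Interferon-stimulated genes had 4 of 23 higher and none lower, 17.39% in all, led by BST2, a viral restriction factor, at 2.12 and 2.05 CPM in the double, against 0.126 and 0.145 CPM in the single knockdown (log2 3.90, SE 0.37; adjusted p = 3.6e-05, edgeR). Of 32 nucleotide excision repair genes 1, XPC, was called, against 6 higher and 3 lower without replicate 1 of the PIP4K2A knockdown and 1 and 8 without replicate 2. SR proteins and splicing regulators had 7 of 38 lower, with SRSF5 (-0.57) and SRPK2 (-0.50), and 2 higher, 23.7% in all, against 11 lower and 8 higher without replicate 2 of the PIP4K2A knockdown.

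Lists of short, abundant transcripts gave counts that depended on which PIP4K2A-knockdown library was in the fit. Of 80 cytosolic ribosomal protein genes 15 were called higher and 5 lower, against 29 and 1 without replicate 1 of the PIP4K2A knockdown and 17 and 18 without replicate 2, and 31 of the 80 had PIP4K2A-knockdown replicates over 0.5 log2 apart. Of 70 nuclear-encoded respiratory chain genes 16 were higher and 1 lower, against 23 and 2 and 26 and 12, with 29 over 0.5 log2 apart. Of the 13 mitochondrially encoded mRNAs 1 was called lower; without replicate 1 none was lower and 2 were higher, and without replicate 2 6 were lower. In the main fit 25% of the ribosomal protein genes and 24.3% of the respiratory chain genes were called, close to the 25.1% of protein-coding genes. Of the mitochondrially encoded mRNAs 7.69% were called. No direction is drawn for these lists. Of the histone genes given next, 32.4% were called in the main fit. Of 37 replication-dependent histone genes 8 were lower and 4 higher, against 9 and 0 without replicate 1 and 11 and 7 without replicate 2, and their near-identical copies make single values uncertain.

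**Figure D5:**
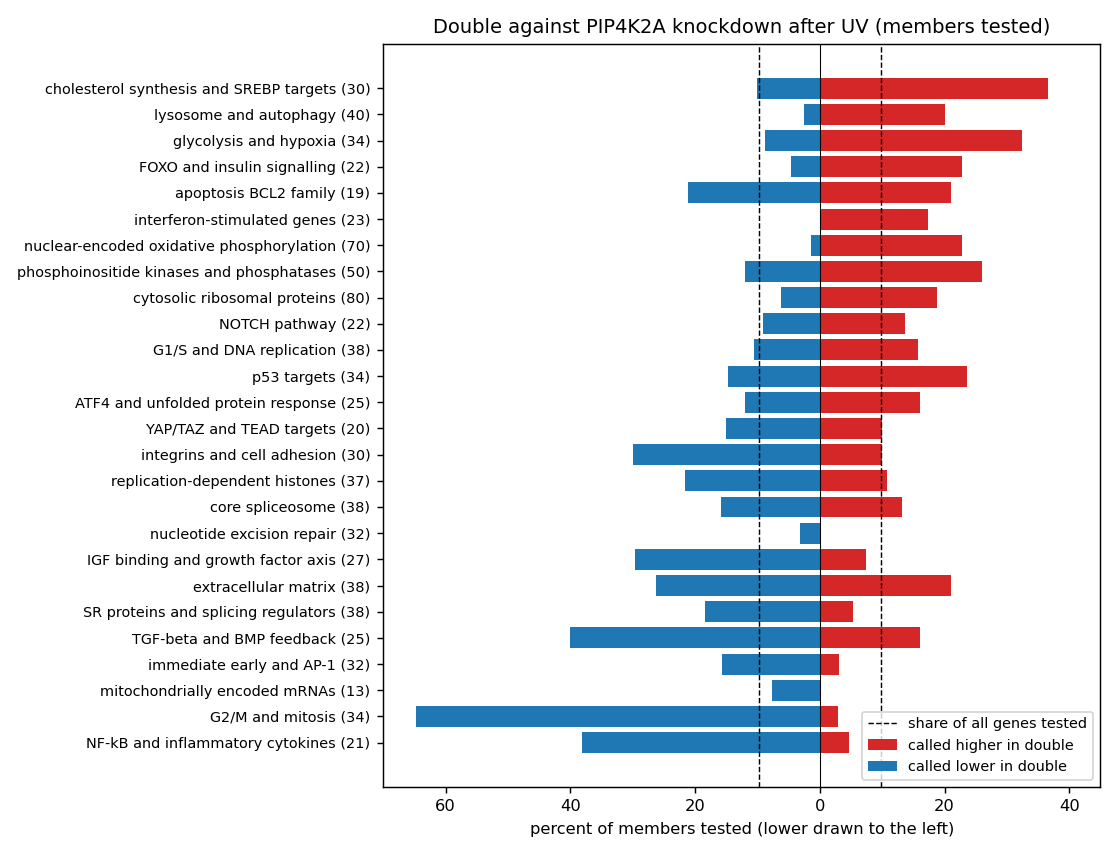
Percent of members called higher (red, right) or lower (blue, left) in the double against the PIP4K2A knockdown after UV, for each gene list, ordered by median log2 fold change, with the number tested in brackets. Dashed lines give the share of all genes tested, 9.81% higher and 9.71% lower. The G2/M list has 22 of 34 members lower.

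Markers of other cells were read in the same libraries. Epithelial markers summed to 227 and 231 TPM in the double knockdown, against 434 and 239 TPM in the PIP4K2A knockdown, mostly from KRT8 and KRT18, with 2 of 10 tested called lower and 1 higher. Mesenchymal markers summed to 1834 and 1843 TPM against 2494 and 1731 TPM in the same order, and neural markers to 70.4 and 70.4 TPM against 70.1 and 43.5 TPM. Blood markers summed to 2.59 and 2.48 TPM against 4.54 and 2.92 TPM, none called, and HBB had no count in any of the 4. COL1A1, VIM and SPARC, typical of mesenchymal lines, were abundant, while TWIST1 and IBSP had no count. In each sum the PIP4K2A-knockdown replicates lay further apart than the double-knockdown replicates, replicate 1 being the higher, and the part of this in the gene results was not tested.

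The isoform-weighted transcript length, which moves when isoform use changes, differed between the lines for 11 of 11522 genes (0.0955%; limma, adjusted p under 0.05), 3 longer and 8 shorter in the double knockdown, with 1338 at an unadjusted p under 0.05. AIF1L averaged longer transcripts, at 2509 and 2594 bases in the double knockdown, against 1871 and 1860 bases in the PIP4K2A knockdown (log2 0.45; adjusted p = 0.028, limma). MIAT, a nuclear long noncoding RNA, was shorter, at 3305 and 3429 bases against 4876 and 4924 bases in the same order (log2 -0.54; adjusted p = 0.02, limma). FAM199X and DMWD were longer, and H4C8, LINC01128, TAF1B and ZFYVE1 shorter. Only 1 to 2 genes were called without either double-knockdown library, none with only the 4 libraries in the fit, and 1680 without replicate 2 of the PIP4K2A knockdown.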

How the data were processed

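RNA-seq of 16 U2OS libraries in 8 groups of 2 was deposited as 1 gene table per library, and groups were taken from titles. The expected counts per gene, and the TPM values beside them (abundance per transcript length, scaled to each library), were deposited by the authors under those names, per the file headers. RSEM, STAR, SAMtools and GRCh38 are named in the submitters' processing notes. What each did, its version, the strand setting and the annotation release: not given in the sources used here. The deposited length column is weighted by isoform abundance.

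Counts, rounded to whole numbers, entered edgeR 4.0.16 (R 4.3.3) and its quasi-likelihood test, after filterByExpr with a minimum count of 10 and TMM scaling, with 1 term per group over 15 libraries. Genes with a Benjamini-Hochberg adjusted p under 0.05 were called. SE is the fold change over the root of F. Levels are TMM-scaled CPM, which are not divided by length, and the rule of no overlap was applied to CPM and not to TPM. Lengths were tested with limma 3.58.1. The main script was tested on simulated counts. DESeq2 1.42.0 and other settings were alternatives. Positions and gene types came from GENCODE release 29, which holds 58420 of the 60666 gene IDs. Symbols came from a separate list of gene names, which covers 60437 of the IDs. Upstream sequences came from RefSeq's GRCh38.p14 table, which holds no entry for SOX9, ELL2 or MAGEA10.

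Named genes were the 15 largest rises and falls past the test with a mean of 5 CPM, no overlap, and replicates within 0.5 log2 in both groups, up to 4 members of each list by size, and the 6 largest of each difference contrast in each direction. List members given with a fold change alone were picked after values were seen. The lists and members were chosen with earlier results of these data known. Counts limit precision at low levels, and SEs rest on the spread estimated over the 15 libraries.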

Additional observations from a re-analysis of the deposited data

Results flagged for a closer look

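Lines with and without the PIP4K2B hairpin differed otherwise in the PIP4K2A-knockdown than in the empty-vector background after UV. A test of the difference itself (edgeR, adjusted p under 0.05) called 22.3% of all genes tested. It called 13 of the 15 largest rises and 13 of the 15 largest falls. These genes were picked by the double-to-PIP4K2A contrast, which is part of this difference. Their counts thus follow in part from the choice. Hairpin and other differences between the lines cannot be told apart here. The differences given here are the 6 largest in each direction among genes that averaged 5 CPM or more over the 8 libraries of both contrasts and had agreeing replicates. The difference was higher in the PIP4K2A-knockdown background by 5.01 log2 for CDKN2B, an inhibitor of the kinases CDK4 and CDK6, by 4.59 for FOXS1, by 4.53 for HEPH, by 4.50 for MAGEA10, by 4.09 for CGB8 and by 3.97 for MIAT. CDKN2B had 13.3 and 13.3 CPM in the double knockdown and 8.16 and 7.75 CPM in the PIP4K2A knockdown, whereas it had 0.287 and 0.285 CPM in the PIP4K2B knockdown and 5.01 and 6.15 CPM in the empty vector. MIAT had 16.2 and 17.7 CPM in the double, 5.32 and 5.43 CPM in the PIP4K2A knockdown, 3.57 and 2.60 CPM in the PIP4K2B knockdown and 15.5 and 15.4 CPM in the empty vector. CGB8, a chorionic gonadotropin gene, has near-identical copies, which makes its value uncertain.

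The difference was -7.87 log2 for LINC02474, -4.54 for SEMA3A, -4.29 for LAMA3, -3.76 for ZFP30, -3.28 for LINC01029 and -3.27 for LCP1. LCP1, an actin-bundling protein, had 13.04 and 12.9 CPM in the double, 26.2 and 28.9 CPM in the PIP4K2A knockdown, 18.6 and 17.8 CPM in the PIP4K2B knockdown and 4.18 and 3.84 CPM in the empty vector. ZFP30 had 6.14 and 5.49 CPM in the double, 22.6 and 24.5 CPM in the PIP4K2A knockdown, 28.4 and 31.3 CPM in the PIP4K2B knockdown and 9.94 and 7.81 CPM in the empty vector.

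The same kind of test called a change of the double-to-PIP4K2A difference with UV for SOX9 (-1.33 log2), ELL2 (-1.03) and STX3 (-0.93). Each difference was lower after UV. Groups of 2 libraries are too small for a search for deviating samples.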

How the results depend on the processing

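The number of calls after UV was 4440 with RLE factors, 4612 with CPM above 1 in 2 libraries, 5019 with no filter and 4169 with DESeq2. Scaling to ribosomal protein genes gave 1263 higher, 1049 untreated and 1 for UV minus untreated. With all 16 libraries, 31 genes (16 higher, 15 lower) were called after UV, 21 untreated, 0 for UV minus untreated, 127 for PIP4K2B knockdown against vector and 166 for the background difference; edgeR's biological coefficient of variation was then 41.9%, against 11.3% for 15. With only the groups compared, 439 (282 higher, 157 lower) were called after UV, 0 for UV minus untreated, 7151 for PIP4K2B knockdown against vector and 0 lengths. UV minus untreated gave 243 calls with no filter and 19 with DESeq2.

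Without 1 library, the calls were 1923 to 6432 after UV (1122 to 3241 higher, 800 to 3191 lower), 583 to 1252 untreated, 0 to 1523 for UV minus untreated, 2056 to 2448 for PIP4K2B knockdown against vector, 3397 to 7421 for the background difference and 1 to 1680 lengths. Without replicate 1 of the PIP4K2A knockdown after UV, 5 uncalled fold changes turned sign, to 0.024 for MT-ND4, -0.17 for PCLAF, 0.45 for DRAP1, -0.34 for CISD2 and 0.36 for NDUFS5, against -0.457, 1.99, -1.67, 1.47 and -1.42 without replicate 2 in the same gene order. The cause of these shifts was not tested.

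Replicate numbers were not used to pair the libraries. Deviations of same-numbered libraries of the double and the PIP4K2A knockdown after UV correlated at -0.0914, and at -0.427 to 0.692 over 21 group pairs. These values do not settle whether some libraries were handled together. With the number as a replicate block 4253 genes were called after UV, 1433 untreated, 3 for UV minus untreated, 4079 and 4831 for the other contrasts and 10 lengths.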

Other observations

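The extent of the UV response was read in genes chosen in another line, with no test. Of genes that changed with UV in the PIP4K2B knockdown line, a line outside the comparison, the 229 that were higher had a median UV shift of 0.92 and 0.934 log2 in the double-knockdown libraries and of 0.947 and 0.625 log2 in the PIP4K2A-knockdown libraries. The 322 that were lower had -1.33 and -1.32 log2 in the double, and -1.25 and -1.18 log2 in the PIP4K2A knockdown. For the higher genes, replicate 2 of the PIP4K2A knockdown stood lowest.

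NOTCH pathway genes had 3 of 22 called higher and 2 lower. The ligands JAG1 (-1.02) and DLL4 (-1.46) fell, and the receptor NOTCH3 (0.67) and the glycosyltransferase LFNG (0.98) rose. The BCL2 family had 4 of 19 called in each direction, FOXO and insulin signalling genes 5 of 22 higher and 1 lower, YAP/TAZ and TEAD targets 2 of 20 higher and 3 lower, ATF4 and unfolded protein response genes 4 of 25 higher and 3 lower, and core spliceosome genes 5 of 38 higher and 6 lower. Of protein-coding genes, 25.06% were called. Without replicate 1 of the PIP4K2A knockdown the higher and lower calls were 5 and 2 for NOTCH, 7 and 3 for the BCL2 family, 8 and 1 for FOXO, 4 and 3 for YAP/TAZ, 6 and 4 for ATF4 and 9 and 4 for the core spliceosome. Without replicate 2 there were 4 higher and 6 lower for NOTCH, 6 and 5 for the BCL2 family, 6 and 3 for FOXO, 5 and 6 for YAP/TAZ, 6 and 5 for ATF4 and 5 and 17 for the core spliceosome. The split of the core spliceosome thus leaned higher without 1 library and lower without the other, and no direction is drawn for these lists.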
